A study of Mus musculus with 4 samples.

Results

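Fatty acid activation and oxidation was followed through 33 genes in immune cells sorted from mouse liver after a control diet or a diet that causes fatty liver. The genes were chosen by name, for known roles in activating fatty acids, carrying them into mitochondria, breaking them down in mitochondria and peroxisomes, and controlling these steps, and the choice was made with earlier results of these data known. All 33 were found among the 27998 genes that the 4 libraries share, and 31 of them held enough counts to be tested in the monocytes and macrophages.

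The mice were male wild-type C57BL/6 animals, 8 weeks old when obtained. The control group (NCD) received a normal control diet and the other group (MCD) a diet deficient in methionine and choline, in both cases for 6 weeks, and neither group carried a transgene or deletion that the labels name. Each diet has 2 single-cell libraries, and no label says if the cells of a library came from 1 animal or from pooled animals. The p-values therefore treat the library, and not the animal, as the replicate. The sorted cells were live (7AAD-), CD45+, Ly6G- and of intermediate CD11b, and the level of F4/80 is given as low in the series text and as high in the sample labels. No batch is named and every library belongs to 1 diet, so diet and preparation cannot be told apart.

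A long-chain fatty acid is first joined to coenzyme A by an acyl-CoA synthetase, then passed to carnitine at the outer mitochondrial membrane, shuttled across the inner membrane and returned to coenzyme A. In the matrix it goes through repeated rounds of dehydrogenation, hydration, another oxidation and thiolysis, each of which releases acetyl-CoA and passes electrons to the respiratory chain through the electron transfer flavoprotein. Unsaturated chains need auxiliary isomerases and a reductase, very long and branched chains start in peroxisomes, and nuclear receptors of the PPAR family raise many of these genes. Hepatocytes are the main site of this pathway in liver, and macrophages use it during differentiation and lipid handling.

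Counts are unique molecular identifiers (UMIs), each standing for 1 captured transcript. The filters on cell quality left 1735 and 1786 cells in the NCD libraries, and 2950 and 3138 in the MCD libraries. Monocyte-like and macrophage-like clusters made up 842 and 797 of these in NCD and 1625 and 1726 in MCD, called the union below. Depth differed by diet, with a median of 2036.5 and 2035 UMIs per union cell in NCD and of 13786 and 13045.5 in MCD, and ribosomal genes took 28.4% and 27.0% of union UMIs in NCD against 17.5% and 17.3% in MCD. Ly6Chi monocyte-like cells were 46.2% and 52.2% of the union in NCD and 67.2% and 71.6% in MCD. Ptprc (CD45), Itgam (CD11b), Ccr2 and Adgre1 (F4/80) were present in the union of every library and Ly6g had 0 UMIs. The libraries share at most 12 barcodes pairwise, and doublets were not called. Levels below are CPM, the UMIs of a gene per 1000000 UMIs of the cells summed, scaled by TMM (a factor that aligns most genes between libraries), and are given in the order NCD 1, NCD 2, MCD 1, MCD 2. Differences are log2 fold changes of MCD over NCD ± the standard error (SE) of the edgeR fit.

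In the union, 11 members were higher in MCD, 2 were lower and 18 did not pass the test (edgeR quasi-likelihood test, adjusted p under 0.05). The background was high, since 39.8% of the 11302 tested genes passed, 21.2% as higher and 18.6% as lower in MCD. The members' share of calls, 41.9%, is close to that background. Of the tested members, 35.5% were called higher and 6.45% lower. In all 13 called members, and in 11 of the 18 that did not pass, the values of the 2 diets did not overlap. The share of all tested genes without overlap was not counted, so lack of overlap is no added support for a call. The median log2 fold change of the members was 0.29 and that of all tested genes 0.02, and 21 of the 31 members lay above 0. By step of the pathway, of the 8 genes of activation and the carnitine shuttle, 1 was higher and 2 were lower, with a median of -0.28, and of the 17 genes of the mitochondrial rounds, their auxiliary enzymes and electron transfer, 8 were higher and 0 lower, with a median of 0.54. These joint groups were formed after the values had been seen and carry no test.

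**Figure D1:**
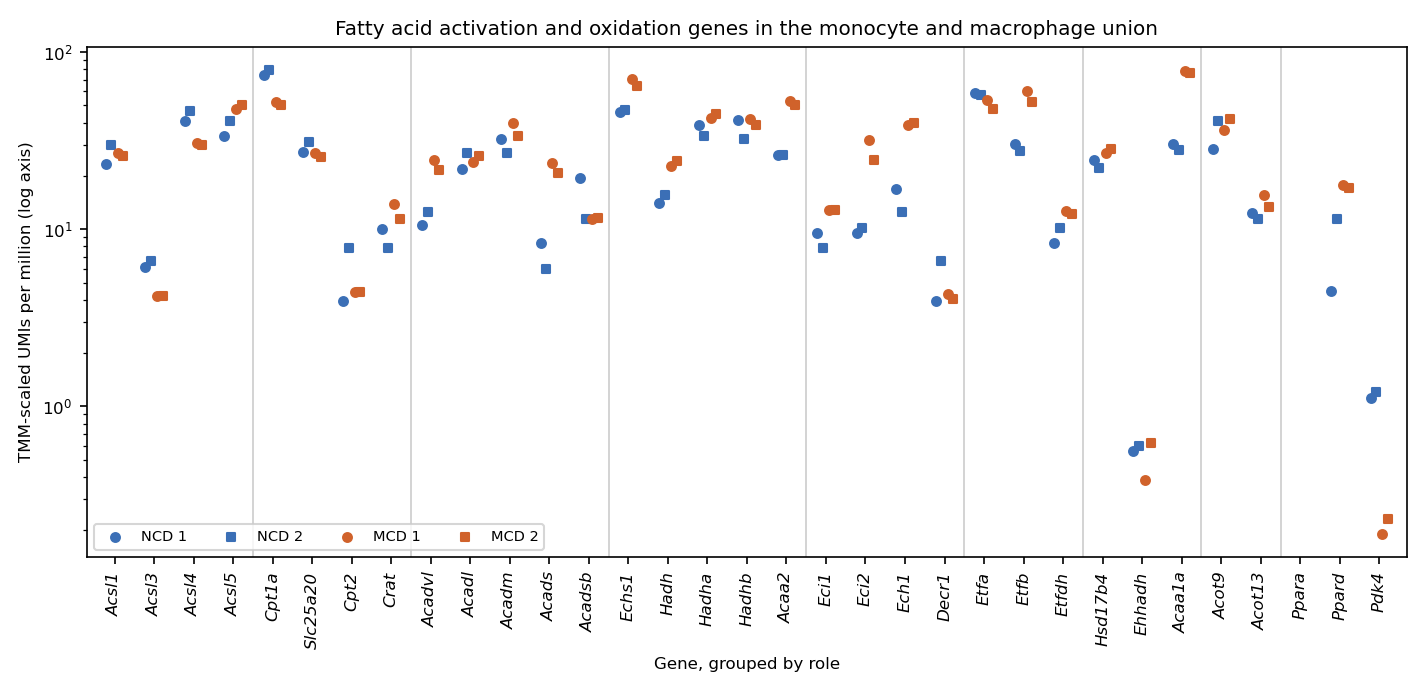
TMM-scaled CPM (log axis) of the members in the union, 1 point per library, blue for NCD and orange for MCD, with vertical lines between roles. Acads, Eci2, Ech1 and Acaa1a show both MCD libraries clearly above both NCD libraries, Cpt1a and Acsl4 show them below, and Ppara has no point because it had 0 UMIs.

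Activation is catalysed by the long-chain acyl-CoA synthetases, of which 1 of 4 was higher and 1 lower. Acsl4, the synthetase that prefers arachidonic acid, stood at 40.8 and 46.8 in NCD and at 30.5 and 29.8 in MCD, a difference of -0.54 ± 0.13 (edgeR adjusted p = 0.0115). Acsl5, a synthetase of mitochondria and endoplasmic reticulum, stood at 33.6 and 40.8 in NCD and at 47.5 and 50.04 in MCD, a difference of 0.40 ± 0.13 (adjusted p = 0.0458). Both calls were fragile: that of Acsl4 was lost in 5 of 18 alternative settings and that of Acsl5 in 11. Acsl1, the synthetase linked to inflammatory macrophages, had -0.01 ± 0.16 and its diets overlapped, and Acsl3, a synthetase of lipid droplets, had -0.60 ± 0.31 on 11 UMIs in each NCD library. Neither passed.

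The carnitine shuttle holds the step that malonyl-CoA inhibits, carnitine palmitoyltransferase 1, encoded in these cells by Cpt1a. Cpt1a stood at 74.4 and 79.1 in NCD and at 52.0 and 50.04 in MCD. The difference was -0.59 ± 0.11 (edgeR adjusted p = 0.0032), and the diets did not overlap. With library totals in place of TMM it was -0.24 and no longer passed (adjusted p = 0.143), since that scaling moves the median of all genes from 0.02 to 0.37. Slc25a20, the carnitine-acylcarnitine translocase, had -0.16 ± 0.14, Cpt2, which returns the chain to coenzyme A in the matrix, -0.40 ± 0.37, and Crat, which moves short acyl groups between carnitine and coenzyme A, 0.50 ± 0.26. None of these 3 passed the test.

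The first oxidation of each round is made by acyl-CoA dehydrogenases that differ in chain length, and 2 of 5 were higher. Acads, the short-chain enzyme, had 8.39 and 5.99 in NCD and 23.7 and 20.9 in MCD. Its difference of 1.63 ± 0.23 (edgeR adjusted p = 0.00104) is the largest increase among the members. Both MCD libraries lay well above both NCD libraries, although the NCD values rest on 15 and 10 UMIs, and counting error alone gives an SE of 0.29, above that of the fit. Acadvl, the very-long-chain enzyme of the inner membrane, had 10.6 and 12.6 in NCD and 24.6 and 21.7 in MCD, a difference of 0.998 ± 0.20 (adjusted p = 0.00501). Its call did not hold without NCD replicate 1 (0.90, adjusted p = 0.0560). Acadm and Acadl, for medium and long chains, had 0.31 ± 0.16 and 0.04 ± 0.16 and did not pass. Acadsb, which acts on short branched chains from isoleucine, had 19.6 and 11.4 in NCD and 11.5 and 11.6 in MCD, with overlapping diets.

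Hydration, the following oxidation and thiolysis involve 5 members, of which 3 were higher. Acaa2, the mitochondrial 3-ketoacyl-CoA thiolase, had 26.3 and 26.4 in NCD and 53.0 and 50.1 in MCD, a difference of 0.97 ± 0.13 (edgeR adjusted p = 0.000777). Echs1, the short-chain enoyl-CoA hydratase, had 45.9 and 47.4 in NCD and 70.8 and 64.5 in MCD, a difference of 0.54 ± 0.12 (adjusted p = 0.00827). Hadh, the short-chain hydroxyacyl-CoA dehydrogenase, had 14.0 and 15.6 in NCD and 22.6 and 24.3 in MCD, a difference of 0.67 ± 0.17 (adjusted p = 0.0166). In all 3 the diets did not overlap, which held for every called member of the union. The call of Echs1 was lost when NCD replicate 1 was left out (0.54, adjusted p = 0.0582), and Hadh lost its call in 6 of 18 settings. Hadha and Hadhb encode the subunits of the trifunctional protein, which carries out these steps on long chains, and lie head to head on chromosome 5. They had 0.27 ± 0.13 and 0.12 ± 0.15 and neither passed.

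Double bonds are handled by 4 members, of which 2 were higher. Eci2, an enoyl-CoA delta isomerase of peroxisomes and mitochondria, had 9.51 and 10.2 in NCD and 32.0 and 24.5 in MCD, a difference of 1.52 ± 0.25 (edgeR adjusted p = 0.00194). Ech1, the delta3,5-delta2,4-dienoyl-CoA isomerase, had 16.8 and 12.6 in NCD and 38.8 and 39.8 in MCD, a difference of 1.41 ± 0.17 (adjusted p = 0.000419). For each of them the lowest MCD value exceeded the highest NCD value more than 2-fold. Eci1, the mitochondrial partner of Eci2, had 0.57 ± 0.22 (adjusted p = 0.0723), with no overlap of the diets, and Decr1, the dienoyl-CoA reductase, had -0.32 ± 0.36 on 7 and 11 UMIs in NCD.

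Electron transfer from the dehydrogenases runs through the flavoprotein made of Etfa and Etfb and on to ubiquinone through Etfdh. Etfb had 30.2 and 27.6 in NCD and 60.4 and 52.4 in MCD, a difference of 0.96 ± 0.15 (edgeR adjusted p = 0.00136). Etfa, whose protein pairs with that of Etfb, had 58.7, 56.9, 53.9 and 47.9, a difference of -0.18 ± 0.12 that did not pass, so the genes of the 2 subunits had values of opposite sign. The call of Etfb was lost when the trend of fold changes with GC content was removed (0.30, adjusted p = 0.155), a setting in which Etfa had 0.12. Etfdh had 0.43 ± 0.22 and did not pass.

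Peroxisomal oxidation was followed through 3 members. Acaa1a, the peroxisomal 3-ketoacyl-CoA thiolase, had 30.2 and 28.2 in NCD and 78.1 and 76.1 in MCD. The difference of 1.40 ± 0.12 has the smallest adjusted p of the members (edgeR, 9.92e-05), and libraries of a diet agree closely. A near-identical copy, Acaa1b, had 0, 0, 3 and 1 UMIs, so reads shared between the copies may have been split or dropped. Hsd17b4, the multifunctional enzyme of straight and branched chains, had 0.24 ± 0.15 and did not pass. Ehhadh, the other bifunctional enzyme, abundant in hepatocytes, had 1, 1, 10 and 16 UMIs in the union and was not tested.

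The acyl-CoA thioesterases, which release free fatty acid from coenzyme A, did not pass: Acot9 had 0.18 ± 0.18 and Acot13 0.29 ± 0.21. Among the regulators, Ppara, the lipid-sensing nuclear receptor that drives this pathway in hepatocytes, had 0 UMIs in the union and 0 in all retained cells. Over the 4 libraries pooled this allows up to 0.0377 CPM in all retained cells (3 counts of the total, for counting error only). The limit is weaker for NCD alone, whose libraries held 4965615 and 5186014 UMIs of retained cells against 32322371 and 37186105 in MCD. Ppard, the most widely expressed of the PPAR receptors, had 4.47 and 11.4 in NCD and 17.8 and 17.2 in MCD, a difference of 1.16 ± 0.31 (edgeR adjusted p = 0.0178). The 2 NCD libraries differ more than 2-fold on 8 and 19 UMIs, and leaving out NCD replicate 1 gave 0.65 (adjusted p = 0.107) while leaving out NCD replicate 2 gave 2.00 (adjusted p = 0.0104). Pdk4, the kinase that shuts pyruvate dehydrogenase when fatty acids are burned, had only 2, 2, 5 and 6 UMIs in the union (-2.41 ± 0.87, adjusted p = 0.057).

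**Figure D2:**
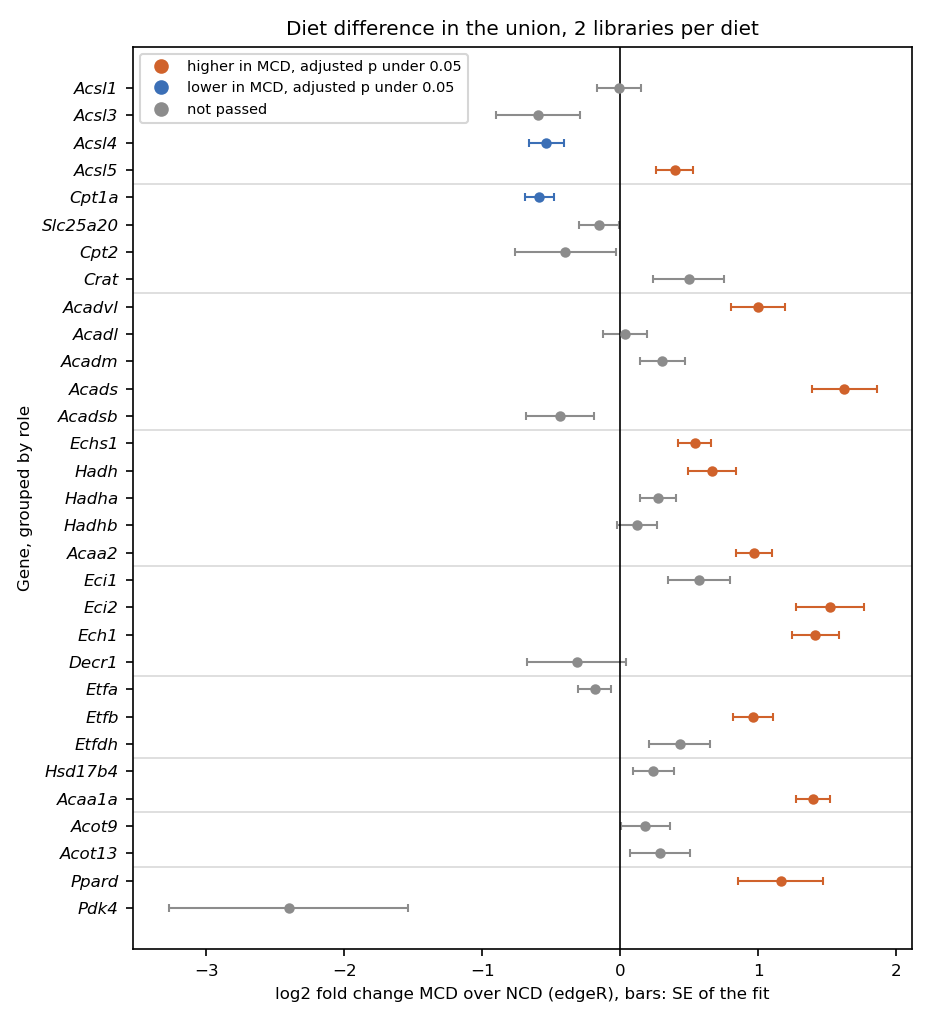
Log2 fold change of MCD over NCD in the union for the 31 tested members (points) with the SE of the edgeR fit (bars), grouped by role. Orange and blue points passed as higher and lower, and grey points did not pass. The called increases reach 1.63 for Acads and the called decreases are -0.59 for Cpt1a and -0.54 for Acsl4.

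The calls of Acads, Eci2, Ech1, Acaa1a and Acaa2 held in all 18 alternative settings, and no called member changed sign in any of them. The sizes depended on GC content, with which fold changes rose across all genes, with a fitted value of -0.36 for transcript ends of 31.4% GC and of 0.73 for those of 56.6% GC. With that trend removed Acads had 0.74 (adjusted p = 0.0498), Acaa1a 0.66, Ech1 0.85, Acaa2 0.55 and Eci2 1.40, while Acadvl (0.41, adjusted p = 0.162), Hadh (0.15), Etfb, Acsl4 (-0.15) and Acsl5 no longer passed. Without NCD replicate 1, 6 members were higher instead of 11. With the sums thinned to the smallest library, which made the summed UMIs equal but not the UMIs per cell, 9 members were higher and 1 lower. With equal weight to each cell class, 8 were higher and 2 lower. The 20 lipid-associated macrophage markers summed to 2889 and 3054 CPM (without TMM) in the NCD union and to 12181 and 11929.6 in the MCD union. Without the lipid-associated cluster the counts were again 11 higher and 2 lower. That setting took out 344 of 347 and 262 of 264 macrophage-like cells of MCD but kept nearly all those of NCD. In Ly6Chi-like cells, which it also kept, these markers summed to 2417 and 2558 in NCD and to 9599 and 10077 in MCD. The part of this cell state in the members' values was therefore not tested by that setting. With library totals, 20 members were higher and 0 lower, and 78.0% of called genes were higher instead of 53.3%.

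**Figure D3:**
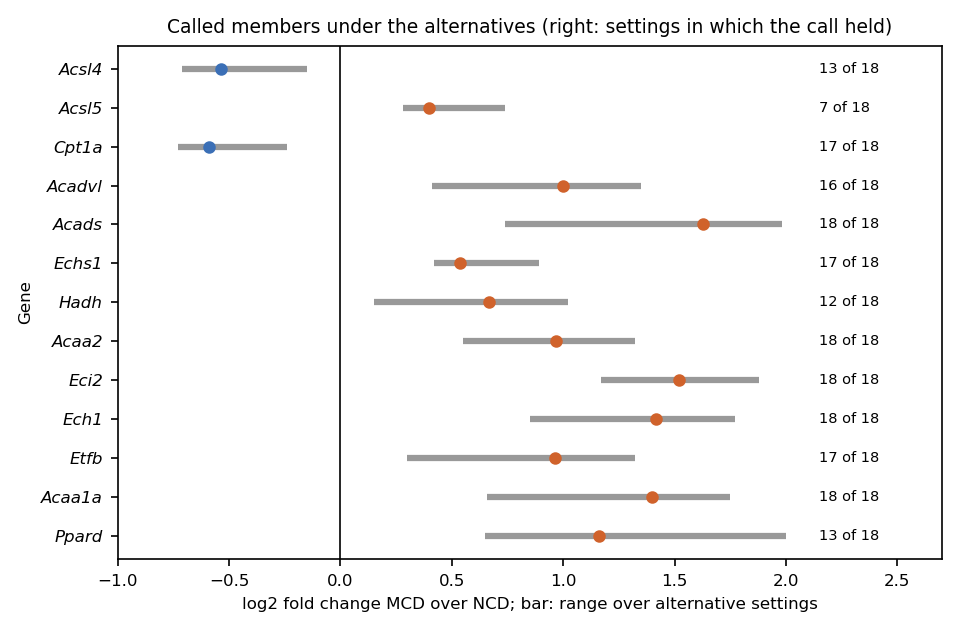
Log2 fold change in the union of the 13 called members (points) with the range over the alternative settings (bars) and, at the right, the number of settings in which the call held. Bars of Acads, Eci2, Ech1, Acaa1a and Acaa2 stay above 0 with 18 of 18 calls held, and Acsl5 held in 7 of 18.

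Sequence before a start site is shown for the 4 members with the largest increases among those whose calls held in all settings, Acads, Eci2, Ech1 and Acaa1a, and for Cpt1a, the member with the largest called decrease. The RefSeq table (GRCm38.p6) had a window, set by 1 RefSeq start per gene, for 28 of 33 members. Only the stretch outside annotated exons is printed, 5′ to 3′ along the gene, from chr5:115119347-115119596 (minus strand), chr13:34994282-34994394 (minus strand), chr7:28825088-28825216 (plus strand), chr9:119341160-119341293 (plus strand) and chr19:3323051-3323284 (plus strand) in that order. The outermost start annotated by GENCODE is the RefSeq start for Acads, but lies 121 bases before it for Ech1, 967 for Cpt1a, 1618 for Acaa1a and 32952 for Eci2. The stretches of Eci2, Acaa1a and Cpt1a are therefore within the annotated bounds of those genes, behind other start sites, and only those of Acads and Ech1 lie before the whole gene. Capitals mark matches on either strand to GGGCGG (the GC box, read as CCGCCC on the opposite strand) and to AGGTCA (the half-site bound by nuclear receptors, read as TGACCT).
Acads: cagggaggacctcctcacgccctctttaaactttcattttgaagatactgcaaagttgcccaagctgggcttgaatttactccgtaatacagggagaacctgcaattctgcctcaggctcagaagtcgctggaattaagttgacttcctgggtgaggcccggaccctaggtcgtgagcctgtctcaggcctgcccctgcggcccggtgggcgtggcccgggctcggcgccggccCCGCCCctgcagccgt
Eci2: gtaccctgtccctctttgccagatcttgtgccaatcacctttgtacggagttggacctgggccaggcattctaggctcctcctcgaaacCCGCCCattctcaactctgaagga
Ech1: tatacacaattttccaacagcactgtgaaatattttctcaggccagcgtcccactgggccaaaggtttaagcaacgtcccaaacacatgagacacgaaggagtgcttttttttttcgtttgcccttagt
Acaa1a: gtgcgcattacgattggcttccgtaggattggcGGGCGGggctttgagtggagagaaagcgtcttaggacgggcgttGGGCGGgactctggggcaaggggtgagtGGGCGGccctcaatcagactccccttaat
Cpt1a: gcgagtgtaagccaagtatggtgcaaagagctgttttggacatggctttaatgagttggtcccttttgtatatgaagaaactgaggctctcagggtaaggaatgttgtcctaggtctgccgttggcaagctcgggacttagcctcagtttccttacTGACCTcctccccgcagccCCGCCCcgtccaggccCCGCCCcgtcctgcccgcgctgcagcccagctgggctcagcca
The Acaa1a stretch holds 3 GC boxes, starting 101, 57 and 29 bases before the RefSeq start. The Cpt1a stretch holds a nuclear receptor half-site 94 bases before the RefSeq start, beside 2 GC boxes. The Ech1 stretch holds no match, and the GC boxes of its window, 86 and 31 bases before the RefSeq start, are in annotated exons and not printed. In the 250 bases before the RefSeq start, a GC box was found in 21 of the 28 members (75.0%) against 57.3% of windows of genes tested in the union and 32.7% of all windows, and AGGTCA in 4 members (14.3%, Acadm, Acadvl, Cpt1a and Echs1) against 10.9% and 14.0%. A direct repeat of AGGTCA with 1 base between the copies, TCAAGGTCA (bound by estrogen-related receptors) and CACGTG (the E-box) were in none of the 28 windows, against 0.0275%, 0.248% and 8.45% of windows of tested genes. AGGTCA is contained in the repeat and in TCAAGGTCA. These are matches of letters and say nothing about binding.

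The union mixes cell types in shares that differ by diet, so the same comparison was made within the 3 classes of the union and in 2 others with over 100 cells in every library, 5 classes of 103 to 1235 cells per library. The 4 further classes with at least 20 cells in every library, such as eosinophil-like cells, were not compared. The classes are called by likeness of transcripts, and in each of them different clusters hold the cells of the 2 diets: clusters 2 (NCD), 0 and 3 (MCD) for Ly6Chi, 10 and 9 for Ly6Clo, 8 and 5 for macrophages, 6 and 4 for cDC2 (type 2 conventional dendritic cells), and 7 and 15 (NCD), 12 and 16 (MCD) for endothelial cells. Cluster 3, with 350 and 330 MCD cells, is the least sure of the Ly6Chi clusters. It matched 4 Ly6Chi markers among its top 50 genes, against 11 for clusters 0 and 2. With cluster 3 left out, Acsl5 was the only called member that lost its call in the union. The macrophage class joins clusters with different names, since the NCD cluster matched the C1q macrophage markers best and the MCD cluster the lipid-associated markers, with C1q genes leading both. Cells were grouped from the same expression values, but only 1 of the 33 members was among the variable genes used.

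Ly6Chi monocyte-like cells, the blood-derived cells that enter inflamed tissue, had 9 members higher and 1 lower of 30 tested, against a background of 27.7% of genes. The higher members were Acadvl, Acads, Etfb, Ech1, Eci2, Acaa1a, Acaa2, Acsl5 and Ppard, led by Acads (6.17 and 5.17 against 19.0 and 17.98, 1.71 ± 0.36, edgeR adjusted p = 0.00539) and Acaa1a (24.7 and 28.5 against 80.8 and 76.8, 1.56 ± 0.18, adjusted p = 0.000168). Each NCD value of Acads rests on 4 UMIs. Cpt1a had 77.1 and 105 in NCD and 50.03 and 48.8 in MCD and fell by 0.89 (SE 0.16, adjusted p = 0.00254). NCD 1 stood apart in this class by some neutrophil markers. The 18 on the list summed to 3633 CPM (without TMM) in NCD 1 and to 267, 494 and 546 in the other libraries. The sum was led by S100a8 (1539 against 7.93, 40.9 and 44.1) and S100a9 (1267 against 2.26, 3.70 and 34.3). Not all followed: Ly6g had 0 UMIs, Csf3r had 83.5 against 80.4, 103 and 109, and Trem1 was lowest in NCD 1. By diet, 5 of the 18 had both MCD libraries above both NCD libraries, 4 had both below and 9 overlapped. The part of neutrophils or their RNA in the members' values was not tested. Without NCD replicate 1, 5 members passed, without NCD replicate 2 and with no filter on low counts 4, and with library totals 18.

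Ly6Clo monocyte-like cells, the patrolling type, had 4 members higher and 1 lower of 28, against a background of 27.5%. Eci2 had 7.96 and 10.8 in NCD and 29.3 and 27.2 in MCD (1.59 ± 0.39, edgeR adjusted p = 0.00766). Acads, Ech1 and Acaa1a were also higher (1.46, 1.11 and 1.15), and Acsl4 fell by 0.82 (61.7 and 60.3 against 37.8 and 31.6). Cpt1a had 97.5, 68.9, 79.0 and 62.8, with overlapping diets. These calls were thin: DESeq2 made 0, and leaving out NCD replicate 1 left 1 and NCD replicate 2 left 2.

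Macrophage-like cells had 6 members higher and 0 lower of 30, against a background of 26.9% of genes, 13.3% higher and 13.6% lower. They were Acads (12.0 and 5.12 against 33.6 and 28.3, 1.75 ± 0.40, edgeR adjusted p = 0.00922), Ppard (1.81), Ech1 (1.52), Etfb (0.91), Acaa1a (0.85) and Echs1 (0.64). NCD values of Ppard rest on 3 and 2 UMIs. Marker sums of these cells also differed by diet. The 15 markers of interferon-activated cells summed to 3332 and 3356 CPM (without TMM) in NCD and to 639.7 and 941 in MCD. This sum was led by Cxcl9 (1460.0 and 1113 against 164 and 134). Of the 15, 9 had both MCD libraries below both NCD libraries, 5 overlapped and 1 was above, Irf7 (35.8 and 24.8 against 50.7 and 122). The 20 lipid-associated markers summed to 3064 and 3582 in NCD and to 20756 and 20077 in MCD. The part of these markers' cell states in the members' values was not tested. With edgeR, 0 members passed without MCD replicate 1 and 0 without MCD replicate 2, DESeq2 made 2 calls, and without either NCD replicate 3 were left.

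Cells outside the union were compared after the clusters had been seen. The cDC2-like cells had 4 members higher (Etfb, Ech1, Eci2 and Acaa1a) and 1 lower (Cpt1a) of 29, against a background of 29.6%. Acaa1a stood at 19.2 and 24.6 in NCD and at 54.6 and 55.5 in MCD (1.34 ± 0.22, edgeR adjusted p = 0.00103). Endothelial-like cells, which line liver vessels, had 6 higher (Acadvl, Acaa2, Eci2, Ech1, Etfb and Acaa1a) and 1 lower (Acsl4) of 31, against a background of 29.6%. Acads, with 16.3 and 11.8 in NCD and 16.9 and 15.1 in MCD, had overlapping diets there (0.20 ± 0.32). DESeq2 made 2 calls in cDC2-like and 0 in endothelial-like cells. Without MCD replicate 1, NCD replicate 1 or NCD replicate 2, cDC2-like cells kept 2, 2 and 3 calls, and without MCD replicate 2 or NCD replicate 2, endothelial-like cells had 2 and 4.

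**Figure D4:**
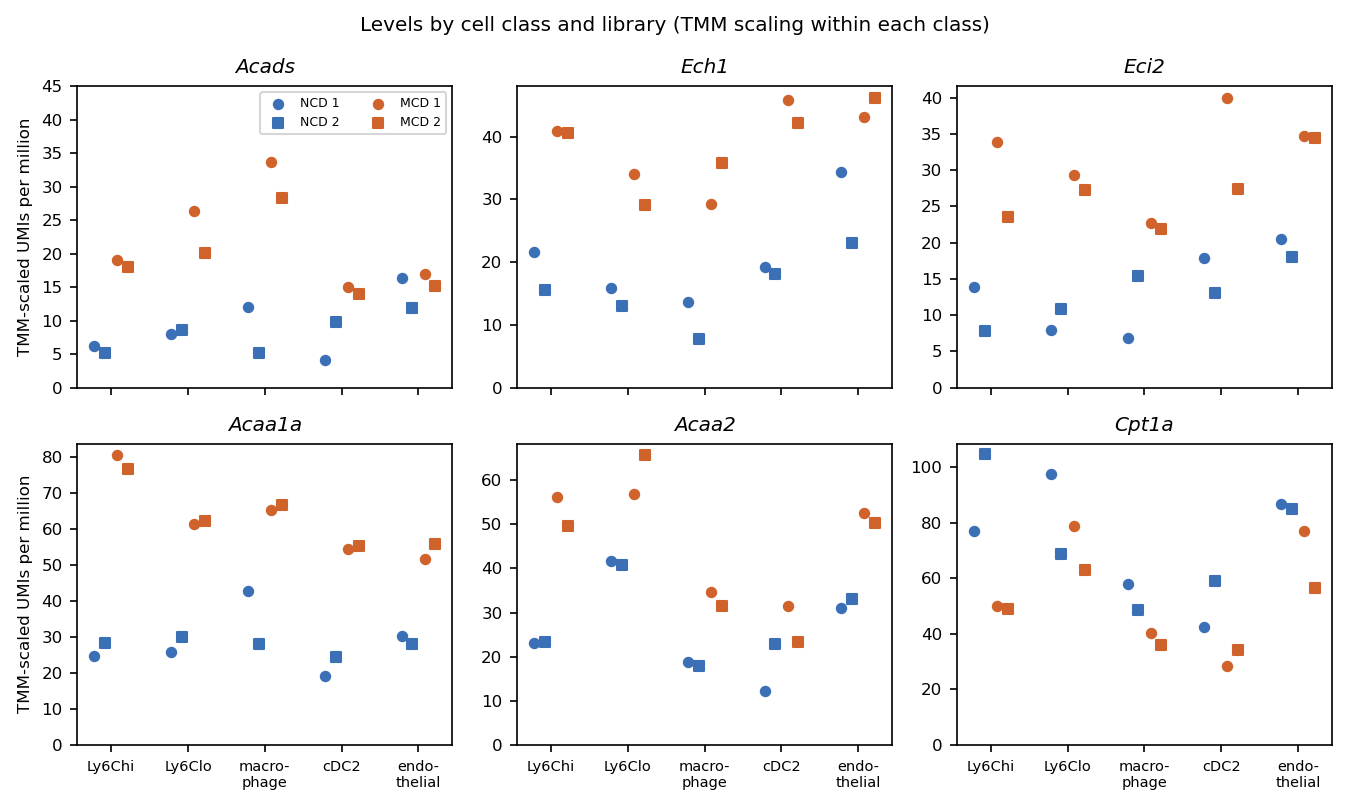
TMM-scaled CPM of 6 members in 5 cell classes, 1 point per library, blue for NCD and orange for MCD, scaled within each class. Acaa1a and Ech1 have both MCD points above both NCD points in every class, and Acads does so in all but the endothelial-like class.

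Over the 5 classes, Ech1 and Acaa1a were called higher in all 5, Eci2 and Etfb in 4 and Acads in 3. Cpt1a and Acsl4 were each called lower in 2 and had negative values in all 5. Of the 28 members tested in all 5 classes, 4 (14.3%) were called higher in at least 4 classes, against 9.78% of the 7577 genes tested in all 5. Those called higher in all 5 were 7.14% of members against 5.99% of genes, and those higher in at least 3 were 17.9% against 14.3%. Those called lower in at least 2 were 7.14% of members against 18.1% of genes. Values were positive in all 5 classes for 12 members (42.9%) against 29.3% of these genes, and 16 members (57.1%) against 41.4% were called in none. These classes come from the same libraries, so their calls are not independent of each other.

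A call in one class and not in another does not show a difference between them, so the class by diet term was tested against Ly6Chi-like cells. No member passed for Ly6Clo-like (0 of 28, background 5.02% of genes), macrophage-like (0 of 30, background 2.68%), cDC2-like (0 of 30, background 0.333%) or endothelial-like cells (0 of 31, background 7.59%). At an unadjusted p under 0.05 these counts were 2, 0, 0 and 4, and DESeq2 called 0 in the first of these tests. The 2 in Ly6Clo-like cells were Cpt1a, with a term of 0.66 ± 0.25 (edgeR adjusted p = 0.164), and Acot9, and the 4 in endothelial-like cells were Pdk4, Acads (-1.43 ± 0.55, adjusted p = 0.123), Cpt1a and Echs1. Without NCD replicate 1 the term of Cpt1a in Ly6Clo-like cells was 1.19 ± 0.30 (adjusted p = 0.0278).

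**Figure D5:**
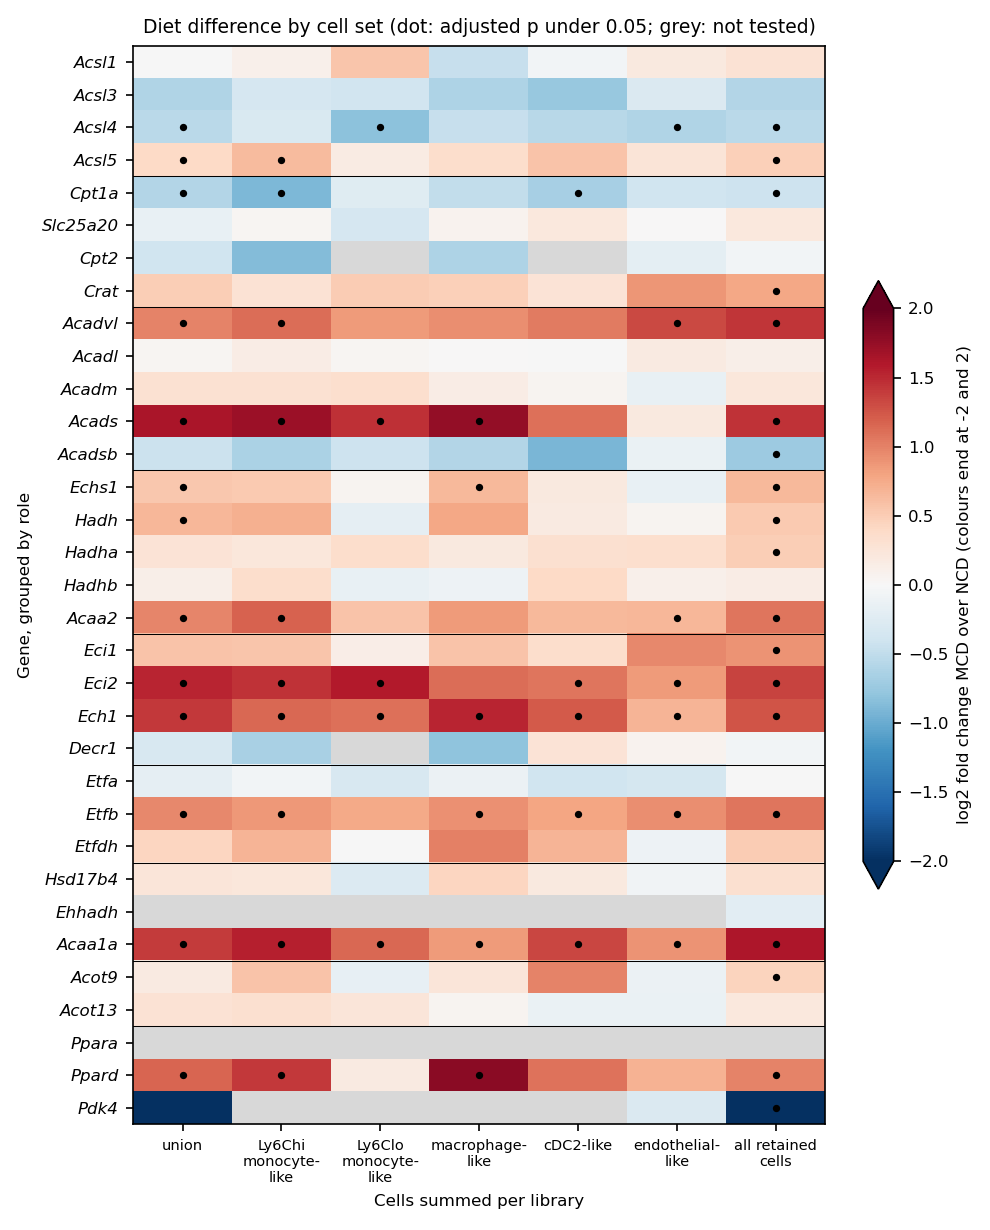
Log2 fold change of MCD over NCD (colour, ending at -2 and 2) of the 33 members in 7 sets of cells, with a dot where the adjusted p was under 0.05 and grey where a gene was not tested. The rows of Ech1 and Acaa1a carry a dot in every column, and that of Pdk4 only in all retained cells.

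In all retained cells together, 15 members were higher and 4 lower of 32 tested, against a background of 49.1% of genes, 26.1% higher and 22.9% lower. The 4 lower were Cpt1a, Acsl4, Acadsb and Pdk4. Pdk4 had 11.6 and 24.0 in NCD and 1.90 and 3.61 in MCD, a difference of -2.69 ± 0.43 (edgeR adjusted p = 0.00328), while within endothelial-like cells it had 41.7 and 68.0 in NCD and 49.1 and 43.7 in MCD (-0.29 ± 0.22, adjusted p = 0.349), with overlapping diets. Endothelial-like cells held 357 of the 381 Pdk4 UMIs (93.7%) and were 12.7% and 21.4% of retained cells in NCD and 3.49% and 7.23% in MCD. Of the summed UMIs, on which the levels rest, they held 26.2% and 35.7% in NCD and 3.48% and 7.67% in MCD. Acadsb was lower in all retained cells (21.9 and 22.8 against 13.1 and 14.0, -0.73 ± 0.13, adjusted p = 0.00529) and its CPM by class totals, without TMM, was 36.1, 42.2, 45.3 and 35.4 in endothelial-like cells against at most 19.9 in a library of the other 4 classes compared. Within endothelial-like cells Acadsb had -0.13 ± 0.21 and was not called. The part of the endothelial share in the values over all retained cells was not tested.

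Levels between classes are a description, since the classes were made from the same cells. Among the 5 classes compared, endothelial-like cells stood above the other 4 in both libraries for 9 of the 28 members tested in every class in NCD (32.1%) and 6 in MCD (21.4%), against 34.5% and 27.4% of all 7577 genes tested in every class. Of the 33 members, those above in both diets were Acadl, Acadsb, Hadhb, Pdk4 and Acsl4, though for Acadl in MCD cDC2-like cells came close (52.4 against 53.0). For Acsl4 the CPM without TMM was 73.7 and 77.3 in NCD and 56.0 and 53.0 in MCD in endothelial-like cells, and 24.9, 31.7, 33.3 and 31.3 in Ly6Chi-like cells. The order of classes changed with diet for Acads, which in NCD was highest in endothelial-like cells (15.3 and 11.3) and in MCD in macrophage-like cells (39.2 and 32.3). For Acaa1a no class stood apart in NCD, and in MCD Ly6Chi-like cells did (97.1 and 89.7), with macrophage-like cells next (76.2 and 76.1).

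Hepatocytes are rich in these enzymes, so their transcripts were followed beside the members. The 25 hepatocyte markers, all with a UMI in the union, summed to 138 and 148 CPM (without TMM) in NCD and to 300.3 and 298 in MCD. Of the 25, 8 had both MCD libraries above both NCD libraries, 7 had both below and 10 overlapped. The rise of the sum was mostly that of Trf, the transferrin gene (66.3 and 69.4 CPM in NCD, 199 and 216 in MCD), while Alb had 2.90, 8.14, 4.83 and 5.60 CPM and overlapped. No member is on that list, and the part of its sum in the members' values was not tested. The 20 endothelial markers summed to 558 and 558 CPM of the union in NCD and to 437 and 429 in MCD, and their part in the Pdk4 values of the union was not tested.

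Other genes of the pathway were followed in 9 lists with 149 genes, of which 113 were tested in the union. Of these, 25 were higher, 15 lower and 73 did not pass, with a median log2 fold change of 0.12 (all genes 0.02). Among all 11302 tested genes 21.2% were higher and 18.6% lower, so the share higher was close to the background and the share lower was below it. The counts of each list below stand against the same background and carry no test of the list. Among 12 tested genes of activation and transport 0 were higher and 2 lower, Acbd5 (-0.92), a peroxisomal acyl-CoA-binding protein, and Dbi (-0.62), the cytosolic one.

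Of 20 other mitochondrial acyl-CoA enzymes, 4 were higher and 1 lower, among them Acad8 of valine breakdown (1.31), Hsd17b10 of isoleucine breakdown (1.28, from 22.9 and 15.6 to 48.3 and 45.6, edgeR adjusted p = 0.000793) and Mut, the methylmalonyl-CoA mutase (-1.02). Of 16 other peroxisomal genes 4 were higher and 4 lower, and the importer Abcd3 (-1.19) and the racemase Amacr (-1.45) were among the lower ones. Amacr lost its call in 8 of 15 settings and Acad8 in 4 of 18.

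Of 7 other thioesterases 2 were higher, Acot8 of peroxisomes (2.07 ± 0.23, from 4.47 and 4.80 to 19.4 and 19.6, edgeR adjusted p = 0.000324) and Them6 (1.61). Of 23 regulators 8 were higher and 2 lower. The largest increases were those of Prkag1, a subunit of the AMP-activated kinase (1.58), Esrra, an orphan receptor of mitochondrial genes (1.31), and Stk11, the kinase above AMPK (1.28). Stk11 had 0.38 and did not pass with the GC trend removed.

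Of 13 genes of malonyl-CoA control and fatty acid synthesis 2 were higher, Elovl1 (0.75) and Srebf1 (0.62), and Acly, the citrate lyase, was lower (-0.65). Of 10 genes of pyruvate dehydrogenase control 0 were higher and 3 lower: the phosphatase Pdp1 (-1.15), the pyruvate carrier Mpc2 (-0.94 ± 0.10, from 177 and 174 to 89.5 and 93.1, edgeR adjusted p = 0.000222) and the kinase Pdk3 (-0.51). Of 11 PPAR targets outside oxidation 4 were higher and 2 lower, among them the lipid droplet genes Plin2 (1.69 ± 0.10, from 99.0 and 98.3 to 318 and 317, adjusted p = 2.09e-05) and Hilpda (2.61), and Fabp1, which is also a hepatocyte marker (-3.44). Srebf1 lost its call in 9 of 18 settings, Pdp1 and Pdk3 in 6 each, and Them6, Hilpda and Fabp1 in 2 each.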

How the data were processed

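Single cell 3' v3 libraries were counted by the authors with Cell Ranger on mm10, per the submitters' processing notes, and each library's deposited matrix holds raw UMI counts by gene and cell barcode. The version was 3.0.2 per the file headers. The gene list of MCD replicate 1 has 27998 entries and that of the others 28692, so the shared entries were used. No source used here gives filters applied before deposit.

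Of 12306 barcodes, 9609 had 200 or more detected genes and no more than 10% of UMIs from mitochondrial genes and were retained. The mitochondrial limit took out 37.2% and 33.6% of NCD barcodes and 11.6% and 9.44% of MCD barcodes. Leiden clustering (30 components, 15 neighbours, resolution 1.0, leidenalg 0.10.2) gave 25 clusters, named from 24 marker lists. The macrophage names were joined after the clusters had been seen. No doublet caller was run. UMIs were summed for each class in each library, and the test between diets was the edgeR 4.0.16 quasi-likelihood F test (R 4.3.3) after TMM scaling and filterByExpr, with Benjamini-Hochberg adjustment over all tested genes and a threshold of 0.05. The library was the replicate, and all 4 entered each fit. Class by diet terms used library as a block. Depth was 2066552 and 1843296 union UMIs in NCD and 22785017 and 23399919 in MCD, so a member with few NCD UMIs is imprecise. The SE of the fit was below the Poisson counting SE for 8 of the 13 called members, so their p-values may be too small.

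Alternatives were DESeq2 1.42.0, library totals, no filter, thinning, other clusterings and cell filters, a GC correction, equal class weights with limma 3.58.1, and each library left out. On simulated union counts of 11107 genes with 200 changed 2-fold, the edgeR test called 147 of the 200 and 2 unchanged genes. On simulated class by diet counts of 10727 genes it called 44 of 200 and 1. The changed genes were drawn above a lower limit of level, and no library effect shared by classes was simulated. Each simulated class got an equal part of its library's union UMIs, while the real Ly6Clo-like sums were smaller (558582, 512184, 2085856 and 2948565 UMIs). The simulated counts therefore do not give the share of real changes that these tests find. All members are accounted for. Values by library are given for those with an absolute log2 fold change of at least 1 and a passed test, and for others where described, and at most the 3 largest changes per other list are named, with Acaa1b added after its values were seen. Some genes of these lists are not reported here. The members and lists were chosen with earlier results of these data known.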

Additional observations from a re-analysis of the deposited data

How the results depend on the processing

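Of 550 alternative values of the 31 tested members' fold changes, 504 kept the outcome of the test, 32 lost the call and 14 gained one. A change of sign together with a call in either fit occurred in 0. For 10 members that did not pass, the sign changed in some settings, without a call there. Genes changed in the union numbered 4496, and 2650 with no filter on low counts and from 2779 to 4020 with a library left out. Genes higher were 2395, 4206 with library totals and from 1584 to 2080 with a library left out. Genes lower were 2101, 1185 with library totals, 1035 with no filter and from 1195 to 1940 with a library left out. Members higher in the union were 11, 20 with library totals and from 6 to 10 with a library left out. Members lower were 2, 0 with library totals, 1 with the GC trend removed, with no filter and with thinning, and from 1 to 2 with a library left out.

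Ly6Chi-like cells had 10 members changed, 18 with library totals, 4 with no filter and from 4 to 10 with a library left out. Ly6Clo-like cells had 5, 0 with DESeq2, 8 with up to 20% mitochondrial UMIs and from 1 to 6 with a library left out. Macrophage-like cells had 6, 2 with DESeq2, 12 with library totals, 10 with up to 20% mitochondrial UMIs and from 0 to 3 with a library left out. The cDC2-like cells had 5, 2 with DESeq2, 19 with library totals, 9 with no filter and from 2 to 6 with a library left out. Endothelial-like cells had 7, 0 with DESeq2 and from 2 to 9 with a library left out. All retained cells had 19 and from 14 to 17 with a library left out. The class by diet count of 0 became at most 1 with a library left out. The causes were not tested. With a library left out, the lone library of that diet is assumed to vary like the others.

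No pairing by replicate number was seen: deviations of libraries with the same number correlated at 0.0192 over 11302 genes. This rests on 2 pairs, and the NCD deviations hold more counting error at their lower depth. The value therefore cannot decide whether libraries with the same number were prepared together. With the replicate number as a block, 4593 genes changed in the union, 11 members were higher and 2 lower, and the counts in classes moved from 10 to 11 (Ly6Chi), 5 to 6 (Ly6Clo) and 19 to 20 (all retained cells). The share of cells with a UMI, planned for levels, was computed but is not reported here. A class without UMIs of a member is not taken to lack that gene. Depth limits the NCD values of Ppara, Ehhadh, Pdk4, Cpt2, Decr1 and Acsl3, which had at most 13 UMIs in each NCD library of the union.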
